A study of Mus musculus with 67 samples.

Results

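The genes described here were the splicing factors of the SR, hnRNP and CLK families and their closest partners in mouse microglia. They were chosen by symbol from the 3 deposited tables of exon counts: the SR protein genes (Srsf followed by a digit), Hnrnp genes, Clk1 to Clk4, Luc7-like genes, Tra2a, Tra2b, Son, Srrm1, Srrm2, Rbm25, Pnisr, Arglu1, Ttc14 and Akap8l. This gave 48 genes of the 24421 in the table of the LPS experiment, and the same 48 of 24411 in each of the other tables. By role they comprised 4 CLK kinases, 11 SR proteins, 10 SR-related genes, 3 LUC7-like genes and 20 hnRNP genes. After a filter on low counts 47 of them were tested in the LPS experiment (all but Srsf12), 46 in the digestion experiment (all but Hnrnph2 and Hnrnpul1) and 47 in the driver experiment (all but Hnrnpul1).

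SR proteins bind exons and help the spliceosome to recognise splice sites, whereas many hnRNP proteins bind the nascent transcript and oppose or redirect that choice. CLK kinases phosphorylate SR proteins and release them from nuclear speckles, and SON and SRRM2 form the core of those speckles. Many of these genes control their own mRNA through poison exons or retained introns, and transcripts of Clk1 and Clk4 with retained introns are known to be held in the nucleus. Ribosome pull-down recovers mainly RNA engaged with ribosomes in the cytoplasm, while RNA of whole sorted cells includes the nucleus. The counts used here summed all isoforms of a gene over exons, so spliced, intron-retaining and poison-exon transcripts were not separated.

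The series held 67 RNA sequencing libraries from brains of C57BL/6J mice with the RiboTag allele (RLP22HA/HA), in which Cre recombinase adds an HA tag to a ribosomal protein. In the LPS and digestion experiments Cre was tamoxifen-inducible (CX3CR1CreER/WT), and every mouse received 4 doses of 5 mg tamoxifen by gavage between 4 and 6 weeks of age. Mice of the LPS experiment were injected with PBS, or with LPS at 2.5 mg/kg, 3 h before tissue collection. Each animal group gave 4 kinds of library: an anti-HA pull-down from whole-brain homogenate, an IgG1 control pull-down, sorted cells (GR1 negative, CD45 intermediate, CD11b positive), and an anti-HA pull-down from sorted cells, with 3 libraries per kind for PBS and 4 for LPS. The digestion experiment compared cells sorted after Collagenase D and DNase treatment (4 libraries) or without enzymes (4) with whole-brain pull-downs (3) and IgG1 controls (4). The driver experiment held pull-downs, inputs and IgG1 controls from the inducible line with tamoxifen (3 of each), the inducible line without it (2 of each) and a constitutive line, CX3CR1Cre/WT RLP22HA/HA, without tamoxifen (3 of each). Cx3cr1 is expressed by microglia and also by other cells, including macrophages at the brain's borders and blood monocytes, so the tag is not restricted to microglia by design. The stated amounts of anti-HA and IgG1 antibody were not equal. Replicates were individual mice per the series design.

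Library totals in the LPS experiment ranged from 166851 to 3513317 counts, and the shallowest were pull-downs from sorted cells, at 166851 to 669508. Totals were 685218 to 1843618 in the digestion experiment and 186099 to 2084562 in the driver experiment. In the PBS mice the summed level of 15 microglia markers was 57000 to 57900 CPM (counts scaled to a common effective library size) in sorted cells, 51600 to 56400 in whole-brain pull-downs and 1190 to 1700 in IgG1 controls. Neuron markers (10 genes) summed to 109 to 186 CPM in sorted cells, 3960 to 4350 in whole-brain pull-downs, 8640 to 14100 in IgG1 controls. They reached 670 to 1350 CPM once sorted cells had gone through the pull-down, where microglia markers summed to 109000 to 118000 CPM. Border macrophage markers (7 genes) summed to 13.8 to 21 CPM in sorted cells, where Cd163, Lyve1 and Ms4a7 had no count, and to 700 to 866 in whole-brain pull-downs. Cd3e, Cd3g, Cd4, Cd8a, Cd79a, Ms4a1 and Nkg7, which mark lymphocytes, had no count in sorted cells of PBS mice. The lymphocyte list as a whole summed to 64.2 to 77.1 CPM there and to 50.6 to 57.7 in whole-brain pull-downs, and Cd79b, a B cell receptor component, was higher in sorted cells (log2 fold change 0.86 with SE 0.23, adjusted p = 0.000917). In bulk libraries fewer cells of a type and less RNA per cell cannot be told apart.

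As a group, the splicing factors took up a larger share of the counts from sorted cells than from any pull-down. In the LPS experiment they made up 0.961% to 1.06% of the counts in sorted libraries, 0.282% to 0.438% in whole-brain pull-downs, 0.359% to 0.568% in those made from sorted cells and 0.254% to 0.319% in IgG1 controls. The ranges for sorted cells and for either anti-HA pull-down of PBS mice did not overlap after scaling either: the 48 genes summed to 9200 to 9890 CPM in sorted cells, 4050 to 4380 in pull-downs from sorted cells and 3050 to 3330 in whole-brain pull-downs. Cells sorted in the digestion experiment gave 0.784% to 0.847% with enzymes and 0.804% to 0.937% without, against 0.32% to 0.334% in the whole-brain pull-downs of that experiment.

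Comparing sorted cells with the whole-brain pull-down of PBS mice asks how the isolation method changes the profile. Of the 47 splicing factors tested, 36 were higher and 5 lower in sorted cells at an adjusted p under 0.05. Over all 11444 genes tested 71.9% were called, 33.2% higher and 38.7% lower, so a difference in itself was common and the direction was what set the counts apart. The median log2 fold change of the splicing factors was 1.74, against -0.15 over all genes tested. Without the filter on low counts the split was 30 higher and 9 lower and the medians were 1.25 and -0.48.

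Among the CLK kinases, 3 of 4 were higher in sorted cells, with a median log2 fold change of 3.56. Clk1 stood at 355, 381 and 376 CPM in the 3 sorted libraries and at 12.4, 10.5 and 12.2 CPM in the 3 whole-brain pull-downs. Its IgG1 controls were at 17.6, 15.8 and 21.7 CPM. Every sorted library was thus far above every pull-down, and the anti-HA libraries lay below their IgG1 controls. The log2 fold change between sorted cells and pull-down was 4.97 ± 0.22 (± SE throughout, adjusted p = 8.05e-29). Clk4, a close relative, had 47.7, 34.6 and 37.8 CPM in sorted cells and 2.19, 1.31 and 1.53 in pull-downs, again without overlap (4.50 ± 0.52, adjusted p = 3.89e-11). Clk2 was also higher (2.61 ± 0.23, adjusted p = 6.1e-16). Clk3 did not pass the test, with a log2 fold change of 0.22 ± 0.18 (adjusted p = 0.259), and its pull-down levels of 105 to 109 CPM were close to the 123 to 129 CPM of sorted cells.

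SR proteins were higher in sorted cells for 8 of 10 tested, with a median log2 fold change of 2.32. Srsf7, which promotes exon inclusion and mRNA export, had 298, 287 and 243 CPM in sorted cells, 15.3, 19.1 and 15.3 in whole-brain pull-downs and 43.9, 28.4 and 42.7 in IgG1 controls. Each pull-down library was below each IgG1 library, and both were far below the sorted cells. The difference between sorted cells and pull-down was 4.04 ± 0.22 (log2, adjusted p = 2.85e-25). Srsf5 had 634, 638 and 615 CPM in sorted cells against 156, 124 and 95.5 in pull-downs (2.33 ± 0.19, adjusted p = 2e-17). For Srsf2, an exonic enhancer-binding factor, the levels were 182, 145 and 179 CPM against 35.8, 38.8 and 33.6 (2.23 ± 0.21, adjusted p = 7.86e-15). Srsf3, the smallest SR protein and a partner of the export receptor NXF1, showed a smaller difference: 144, 151 and 135 CPM in sorted cells against 57, 66.4 and 64.2 (1.19 ± 0.20, adjusted p = 2.25e-07). None of these 4 genes had overlapping libraries. Overlap of libraries was checked throughout for the splicing factors only, so its share over all genes is not known. With 71.9% of all genes called in this comparison, a lack of overlap may be common.

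Srsf9 went the other way. It had 164, 140 and 158 CPM in sorted cells, 389, 388 and 368 in whole-brain pull-downs and 78.3, 53.6 and 43.5 in IgG1 controls. The pull-down was above both others in every library, and sorted cells were lower by a log2 fold change of -1.30 ± 0.18 (adjusted p = 5.59e-09). Srsf4 was lower by -0.56 ± 0.26 (adjusted p = 0.0455), but this call was lost when any of 4 single libraries was left out, namely PBS pull-down 2 (adjusted p = 0.0973) or 3 (0.132), or sorted PBS 1 (0.0755) or 2 (0.168). Srsf12 was too low to test, with no reads in the 3 sorted libraries and 12 in the 3 pull-downs, at least 2.41-fold lower in sorted cells when 0 is replaced by 3 reads for the whole group.

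All 10 SR-related genes were higher in sorted cells, with a median log2 fold change of 3.15. This role holds the genes that were named singly, with earlier results of these data known. Its counts are therefore a description and cannot be ranked against families taken whole. Son, which organises speckles, had 1757, 1788 and 1734 CPM in sorted cells, 164, 133 and 144 CPM in pull-downs and 109, 104 and 175 in IgG1 controls. The sorted libraries were tight and far above, whereas pull-down and IgG1 overlapped, and the difference to the pull-down was 3.58 ± 0.18 (adjusted p = 5.37e-26). Pnisr, an SR-related protein, had 248, 223 and 265 CPM against 14.6, 21.7 and 22.9 (3.63 ± 0.23, adjusted p = 5.06e-22). Arglu1, a cofactor linking splicing and nuclear receptors, had 326, 338 and 419 CPM against 52.6, 44 and 48.9, with 99.9, 78.8 and 120 in IgG1 controls (2.89 ± 0.20, adjusted p = 6e-20). Ttc14 showed the largest difference of these 10 genes, at 4.72 ± 0.25 (adjusted p = 4.93e-25). Tra2a and Tra2b, which bind exonic enhancers together with SR proteins, stood at 3.60 ± 0.30 (adjusted p = 1.66e-16) and 3.41 ± 0.28 (adjusted p = 2.56e-17).

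LUC7-like genes, relatives of a yeast component of the U1 particle, were all 3 higher, with a median of 1.35. Luc7l3 had 183, 174 and 186 CPM in sorted cells, 82.5, 65.7 and 65 in pull-downs and 80.3, 101 and 65.2 in IgG1 controls (1.35 ± 0.18, adjusted p = 2.39e-09). The hnRNP genes were the most mixed role, with 12 higher and 3 lower of 20 and a median log2 fold change of 0.65. Hnrnpa2b1, which binds and sorts RNAs as well as acting in splicing, had 369, 413 and 481 CPM in sorted cells and 48.9, 50.6 and 50.4 in pull-downs (3.07 ± 0.19, adjusted p = 7.98e-22). Hnrnph1 (3.15 ± 0.23, adjusted p = 1.56e-19) and Hnrnpk (1.86 ± 0.20, adjusted p = 1.08e-12) were also higher. Hnrnpu, a nuclear scaffold protein, differed little: 113, 125 and 133 CPM against 84.7, 82.8 and 84.1 (0.55 ± 0.18, adjusted p = 0.00555). Hnrnpa1 did not pass, with 23.8, 20.8 and 16.8 CPM in sorted cells against 13.2, 11.2 and 17.6 (0.58 ± 0.34, adjusted p = 0.117). Hnrnpa1 and Hnrnpa3 have near-identical processed copies in the genome, and counting may have split or dropped their reads, so their levels are uncertain.

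Lower in sorted cells were Hnrnpab (-1.20 ± 0.17, adjusted p = 5.77e-09), Hnrnpl (-1.14 ± 0.24, adjusted p = 3.15e-05) and Hnrnpul2 (-1.14 ± 0.18, adjusted p = 7.93e-08). Hnrnpab, which also binds RNA in the cytoplasm, had 168, 163 and 149 CPM in sorted cells, 378, 352 and 378 in whole-brain pull-downs and 130, 121 and 103 in IgG1 controls. The levels of the pull-down exceeded those of sorted cells and controls in all 3 libraries.

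**Figure D1:**
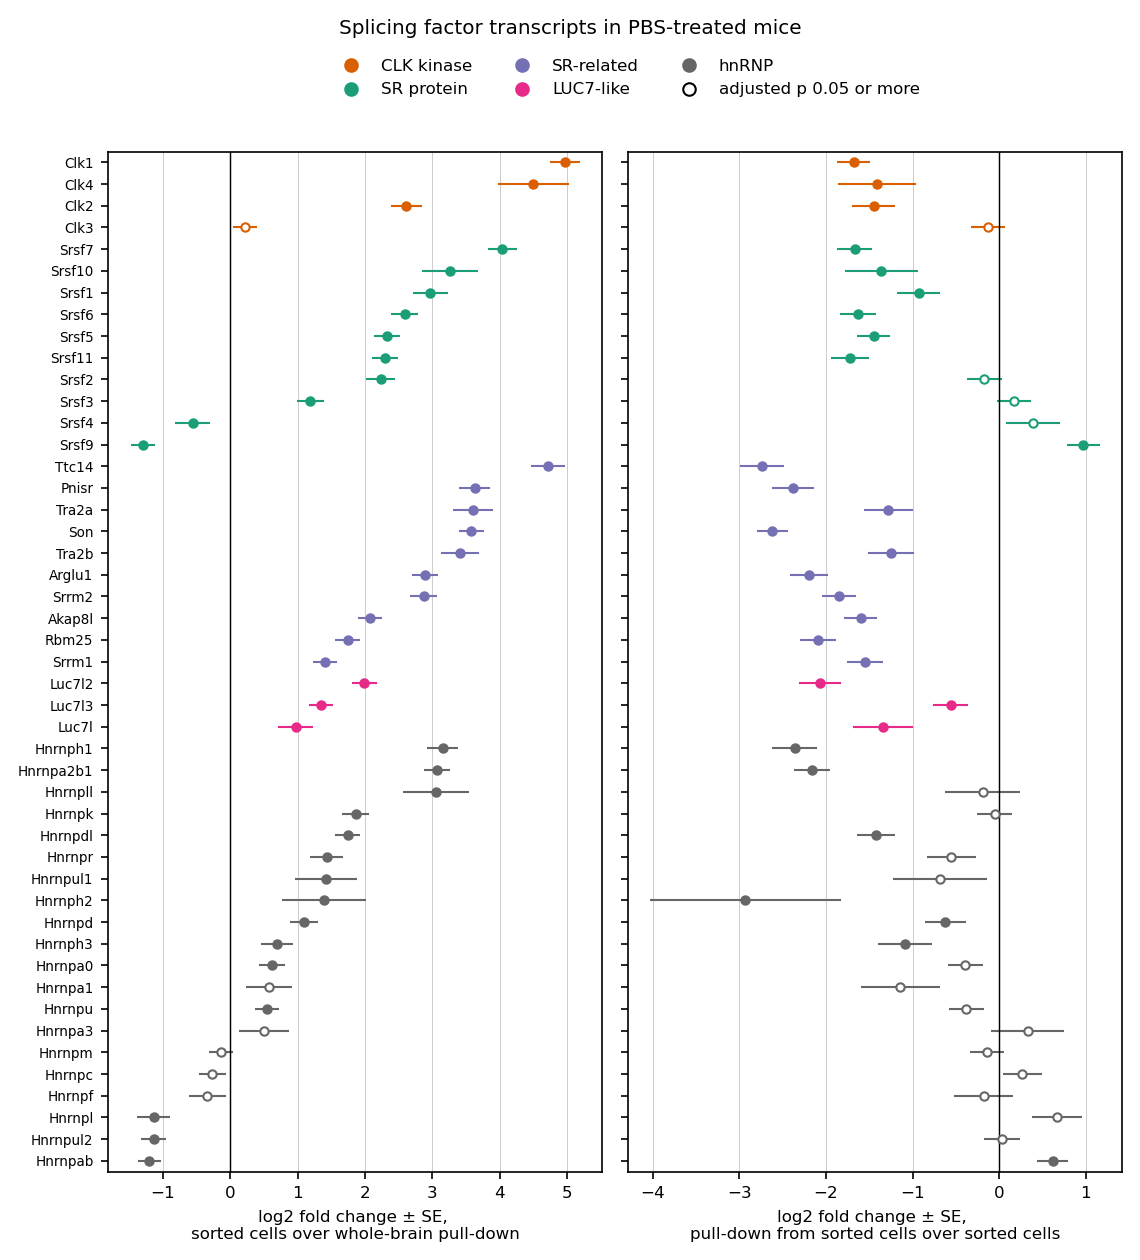
Log2 fold changes (± SE, horizontal axis) of the splicing factors in PBS mice, by role, for sorted cells against the whole-brain pull-down and for pull-downs from sorted cells against sorted cells. Open symbols did not pass an adjusted p of 0.05. Most genes lie to the right in the first comparison (36 higher, 5 lower) and to the left in the second (2 higher, 28 lower), while Srsf9 and Hnrnpab lie on the opposite side in both.

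Levels in the pull-downs were also set against the IgG1 controls. In PBS mice the whole-brain anti-HA pull-down was higher than IgG1 for 14 of the 47 and lower for 11, where 65% of all genes were called, 33% higher and 32% lower. Srsf9 (2.69 ± 0.20, adjusted p = 2.61e-19), Hnrnpa1 (2.80 ± 0.50, adjusted p = 1.79e-06), Hnrnpf (2.66 ± 0.33, adjusted p = 7.26e-10) and Hnrnpab (1.64 ± 0.17, adjusted p = 4.57e-13) led the enriched genes. Below IgG1 were Clk4 (-1.98 ± 0.67, adjusted p = 0.0084, or 0.101 without IgG1 replicate 1), Ttc14 (-1.53 ± 0.32, adjusted p = 3.05e-05), Srsf7 (-1.22 ± 0.24, adjusted p = 1.36e-05), Pnisr (-1.18 ± 0.25, adjusted p = 4.48e-05) and Arglu1 (-1.05 ± 0.21, adjusted p = 1.36e-05). Of the 36 genes higher in sorted cells, 6 were above IgG1 in the pull-down, 11 below and 19 were not called. Of the genes lower in sorted cells, 3 were above IgG1 (Hnrnpab, Hnrnpul2 and Srsf9) and 2 were not called (Hnrnpl and Srsf4). The split of 14 higher and 11 lower depended on scaling. It was 6 higher and 22 lower with DESeq2 size factors, which moved the median of all genes from -0.02 to -0.53. By total counts it was 10 higher and 21 lower, at -0.45. For a gene at or below IgG1 the pull-down level need not come from tagged ribosomes, and how much of it did was not tested.

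The same comparison in LPS mice, with other libraries, called 34 splicing factors higher and 4 lower in sorted cells, with a median of 1.21 (all genes -0.26). Here 76.1% of all genes were called, 33.1% higher and 43% lower. Without the filter on low counts it was 29 higher and 11 lower, with medians of 0.63 and -0.76. Of the 36 genes higher in PBS mice, 33 were also higher in LPS mice (91.7%, and 97.1% of the 34), against shares of 87% and 87.2% over all genes. Ttc14 (5.40 ± 0.24, adjusted p = 2.51e-29), Clk1 (4.69 ± 0.21, adjusted p = 3.51e-29), Clk4 (3.92 ± 0.42, adjusted p = 4.24e-12) and Son (3.39 ± 0.16, adjusted p = 9.14e-29) remained among the highest, and Srsf9 was again lower (-1.67 ± 0.16, adjusted p = 2.03e-14). Akap8l, an AKAP8-like nuclear protein, differed by 2.07 ± 0.18 in PBS mice (adjusted p = 6.1e-16) and by 0.26 ± 0.15 in LPS mice (adjusted p = 0.109, or 0.0465 without replicate 3 of sorted LPS).

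The digestion experiment repeated the contrast in other mice, without injection, and asked whether the enzymes matter. Cells sorted after digestion had 31 of the 46 tested splicing factors higher and 10 lower than the whole-brain pull-down (median 1.35, all genes -0.18), where 72.8% of 11529 genes were called, 31.6% higher and 41.1% lower. Without enzymes the counts were 31 and 9 (median 1.38, all genes -0.15), with 72.8% called, 31.9% higher and 40.9% lower. Clk1 had 352, 339, 324 and 367 CPM after digestion, 323, 268, 296 and 267 without and 9.86, 13.7 and 4.47 in the pull-down. Both sorts were far above the pull-down, by 5.19 ± 0.21 (adjusted p = 2.06e-23) and 4.93 ± 0.21 (adjusted p = 1.07e-22) on the log2 scale. Srsf7 had 418, 375, 340 and 394 CPM after digestion, 351, 365, 387 and 329 without and 39.4, 20.5 and 30 in the pull-down, with overlapping sorted groups. Son stood at 936, 1004, 879 and 767 CPM, at 850, 779, 813 and 771, and at 105, 91.4 and 90.6, in the same order.

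Against IgG1 the pull-down of this experiment had 10 splicing factors higher and 14 lower, where 74.5% of all genes were called, 26.7% higher and 47.8% lower, and a fit of these groups alone gave 15 and 8. Between the sorts no splicing factor was called by the main edgeR fit (0 of 46, with 2 at an unadjusted p under 0.05 and 0 called by DESeq2). In that fit 0.139% of all genes were called, 0.121% higher and 0.0173% lower after digestion. With a replicate block edgeR called 39 genes, 1 of them a splicing factor, lower after digestion, and 5 splicing factors had an unadjusted p under 0.05. The difference of Clk1, for example, was 0.26 ± 0.13. A p that misses the threshold does not show that digestion left these genes as they were. Srsf12, tested in this experiment, had no reads in either sort and 12 in the pull-down. It was at least 4.11-fold lower after digestion and at least 4.44-fold lower without. For Srsf12 that pull-down was itself called lower than IgG1, so its reads need not come from tagged ribosomes. In replicate 3 without enzymes Rbm25 stood at 326 CPM against 101 to 131 in the others, and Luc7l3 at 247 against 70.6 to 120. Of 34 splicing factors higher in sorted PBS cells and tested in both experiments, 29 were higher after digestion (85.3%, and 93.5% of the 31), against 82.7% and 86.3% over all genes. All 5 that were lower in the PBS mice were also lower here, and made up 55.6% of the 9 called lower among the 45 tested in both. Over all genes the shares for the lower direction were 87.8% and 83%.

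**Figure D2:**
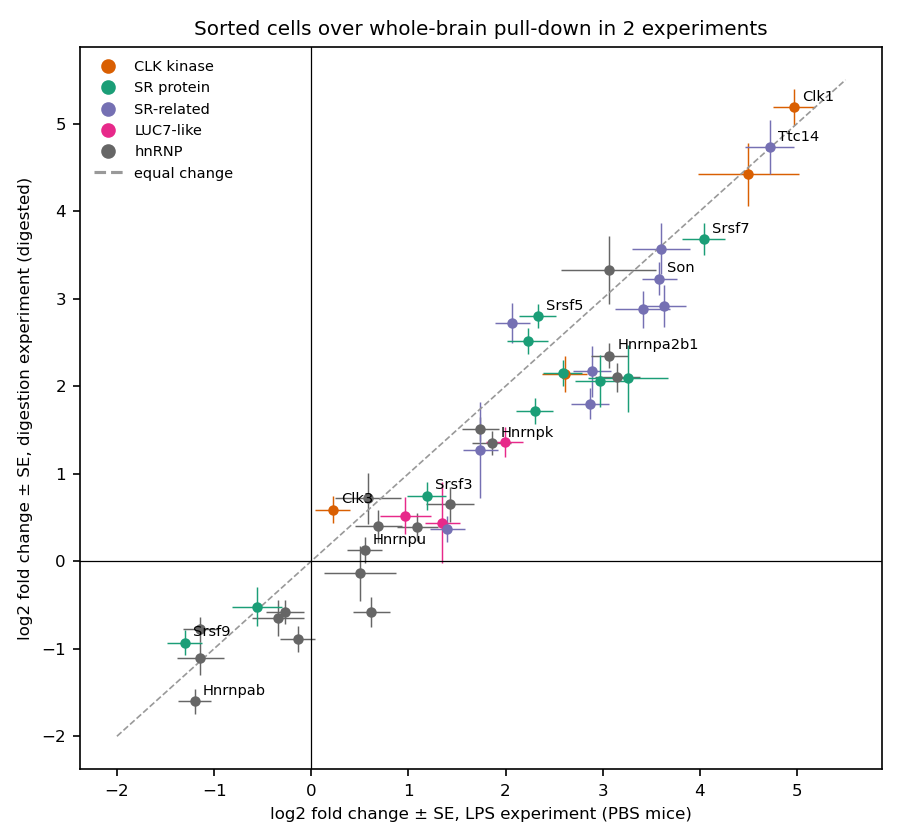
Log2 fold change of sorted cells against the whole-brain pull-down for the 45 splicing factors tested in both experiments, in PBS mice of the LPS experiment (horizontal axis) and after digestion in the digestion experiment (vertical axis). Clk1, Ttc14 and Clk4 lie at the upper right in both and Hnrnpab, Hnrnpl and Srsf9 at the lower left.

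Neuron markers were lower in sorted cells than in the PBS pull-down for 10 of 10 tested (median -4.49), border macrophage markers for 7 of 7 (-7.04), and immediate early genes were higher for 12 of 16 and lower for 2 (1.54). The summed immediate early level was 790 to 886 CPM in pull-downs against 3930 to 4320 CPM in the sort. The part of these cell types, or of gene induction during isolation, in the differences of the splicing factors was not tested.

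Pulling down tagged ribosomes from cells that had been sorted compares the RNA recovered in this way with the total RNA of the same kind of preparation. The series held no IgG1 control labelled as made from sorted cells. RNA carried along without tagged ribosomes was therefore not measured there. Both kinds of library started from sorted cells, and RNA held in the nucleus is one kind that a ribosome pull-down would miss. In PBS mice 28 splicing factors were lower in the pull-down from sorted cells and 2 higher, with a median log2 fold change of -1.25, against 0.04 over all genes. For comparison, 31.9% of all genes were called, 16.6% higher and 15.2% lower. Without the 3 shallowest pull-downs from sorted cells, 1 of them in this group (replicate 2, 288090 counts), 26 were lower and 2 higher.

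Clk1 fell from 355, 381 and 376 CPM in sorted PBS cells to 113, 141 and 101 in the pull-down from them, a log2 fold change of -1.68 ± 0.19 (adjusted p = 2.55e-10). The groups did not overlap, and the pull-down from sorted cells remained above the whole-brain pull-down by 3.29 ± 0.25 (adjusted p = 1.8e-17). Clk2 fell by 1.45 on the log2 scale (SE 0.25, adjusted p = 4.71e-06). Clk4, at 15.6, 11.1 and 16.9 CPM after pull-down, was lower by -1.41 ± 0.45 (adjusted p = 0.0124), a call lost without replicate 1 of sorted PBS (adjusted p = 0.0577) or replicates 1 (0.0564) or 3 (0.0516) of its pull-down. Clk3 did not pass (-0.13 ± 0.20, adjusted p = 0.654). Thus 3 of 4 CLK kinases were lower, with a median of -1.43.

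All 10 SR-related genes, which were named singly with earlier results known, were lower in the pull-down, with a median of -1.97. All 3 LUC7-like genes were lower too. Son stood at 301, 292 and 265 CPM after the pull-down, against 1734 to 1788 before it, and the log2 fold change was -2.62 ± 0.18 (adjusted p = 6.49e-18). Ttc14 (-2.74 ± 0.25, adjusted p = 1.07e-12), Pnisr (-2.38 ± 0.24, adjusted p = 1.3e-11), Arglu1 (-2.20 ± 0.22, adjusted p = 9.1e-12) and Rbm25, a regulator of alternative splice sites (-2.09 ± 0.21, adjusted p = 1.03e-11), followed. The levels of Pnisr were 46.9, 55.5 and 42.2 CPM and those of Arglu1 76.2, 96.2 and 69.1 CPM, below every sorted library. Luc7l3 was lower by -0.56 ± 0.20 (adjusted p = 0.024), with 104, 126 and 140 CPM, and this call was lost without replicate 1 of the pull-down (adjusted p = 0.219), replicate 1 (0.0577) or 3 (0.0585) of sorted PBS, or the shallow libraries (0.0549).

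Among SR proteins 6 of 10 were lower and 1 higher, with a median of -1.14. Srsf7 had 91.9, 85.1 and 82.6 CPM after the pull-down (-1.67 ± 0.20, adjusted p = 1.67e-09) and Srsf5 had 266, 237 and 191 (-1.45 ± 0.19, adjusted p = 1.47e-08). Both lay below all sorted libraries. Srsf2, at 192, 111 and 138 CPM, overlapped the sorted cells and did not pass (-0.17 ± 0.20, adjusted p = 0.54). Srsf3 had 162, 152 and 167 CPM (0.17 ± 0.20, adjusted p = 0.546). Srsf9 was higher in the pull-down, at 301, 311 and 297 CPM against 140 to 164 (0.97 ± 0.19, adjusted p = 8.07e-05).

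Of the 20 hnRNP genes 6 were lower and 1 higher, with a median of -0.38. Hnrnph1 (-2.36 ± 0.26, adjusted p = 9.36e-11) and Hnrnpa2b1 (-2.16 ± 0.21, adjusted p = 2.14e-12) were lower, the latter at 68.4, 122 and 99.5 CPM. Hnrnph2 rested on 1 read in the pull-downs against 16 in sorted cells, a ratio of 0.115 of the scaled levels with a 95% interval for counting error of 0.00274 to 0.739. Hnrnpab was higher, at 248, 222 and 261 CPM (0.62 ± 0.18, adjusted p = 0.00652). Hnrnpk, an abundant RNA- and DNA-binding protein, had 336, 322 and 282 CPM in the pull-down and 304, 332 and 335 in sorted cells (-0.05 ± 0.20, adjusted p = 0.875). Hnrnpu (115, 107 and 67.5 CPM, -0.38 ± 0.20, adjusted p = 0.151) and Hnrnpa1 (9.78, 3.70 and 11.8 CPM, -1.14 ± 0.46, adjusted p = 0.052, or 0.0499 without replicate 3 of sorted PBS) did not pass.

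In LPS mice 26 splicing factors were lower and 3 higher, with a median of -0.56 (all genes 0.03) and 31.9% of all genes called, 15.2% higher and 16.7% lower. Without the 3 shallowest pull-downs, here replicates 2 and 3 at 209147 and 166851 counts, 23 were lower and 4 higher. Of the 28 genes lower in PBS mice 22 were lower again (78.6%, and 84.6% of the 26), against 70.3% and 64.2% over all genes, and these comparisons share no library. Ttc14 (-2.83 ± 0.25, adjusted p = 1.81e-13), Son (-2.21 ± 0.16, adjusted p = 2.73e-17) and Clk1 (-1.43 ± 0.20, adjusted p = 3.91e-08) were among the lowest. Srsf7 differed by -0.54 ± 0.15 (adjusted p = 0.00504) and Akap8l by -0.38 ± 0.17 (adjusted p = 0.0827). Srsf9 was higher again (0.96 ± 0.18, adjusted p = 1.72e-05). Srsf2 (0.47 ± 0.16, adjusted p = 0.0218) and Hnrnpc (0.48 ± 0.18, adjusted p = 0.0312) were also higher. The Srsf2 call was lost without replicate 2 of sorted LPS (adjusted p = 0.0761) or replicate 4 of its pull-down (0.15), and that of Hnrnpc without any of 6 of the 8 libraries, with adjusted p from 0.0544 to 0.115. Hnrnpul1 rested on 2 reads against 38 (ratio 0.105, 95% interval 0.0123 to 0.407).

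Neuron markers were higher in the pull-down from sorted PBS cells for 8 of 10 tested (median 2.17) and oligodendrocyte markers for 6 of 8, while immediate early genes were lower for 7 of 16. Microglia markers were higher there for 8 of 15 and lower for 4 (median 0.64). Whether RNA carried over from other cells lowers the share of the splicing factors there was not tested. Measured against the whole-brain pull-down, the pull-down from sorted PBS cells had 25 splicing factors higher and 2 lower (median 0.74, all genes -0.08), where 53.7% of all genes were called, 24.7% higher and 29% lower. Clk1, Clk4 (3.09 ± 0.70, adjusted p = 0.000175), Srsf7 (2.37 ± 0.25, adjusted p = 3.02e-12), Srsf2 (2.05 ± 0.22, adjusted p = 5.98e-12) and Hnrnpk (1.81 ± 0.21, adjusted p = 3.03e-11) were well above it. Hnrnpul2 (-1.11 ± 0.19, adjusted p = 1.79e-06) and Hnrnpab (-0.59 ± 0.17, adjusted p = 0.00314) were below. In LPS mice 26 were higher and 6 lower (median 0.61, all genes -0.18), with 58.1% called, 24.7% higher and 33.4% lower, and without replicate 1 of the pull-down from sorted cells the counts were 23 and 3. Without the filter on low counts the counts were 19 and 7 in PBS mice (all genes -0.32) and 15 and 10 in LPS mice (all genes -0.63).

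**Figure D3:**
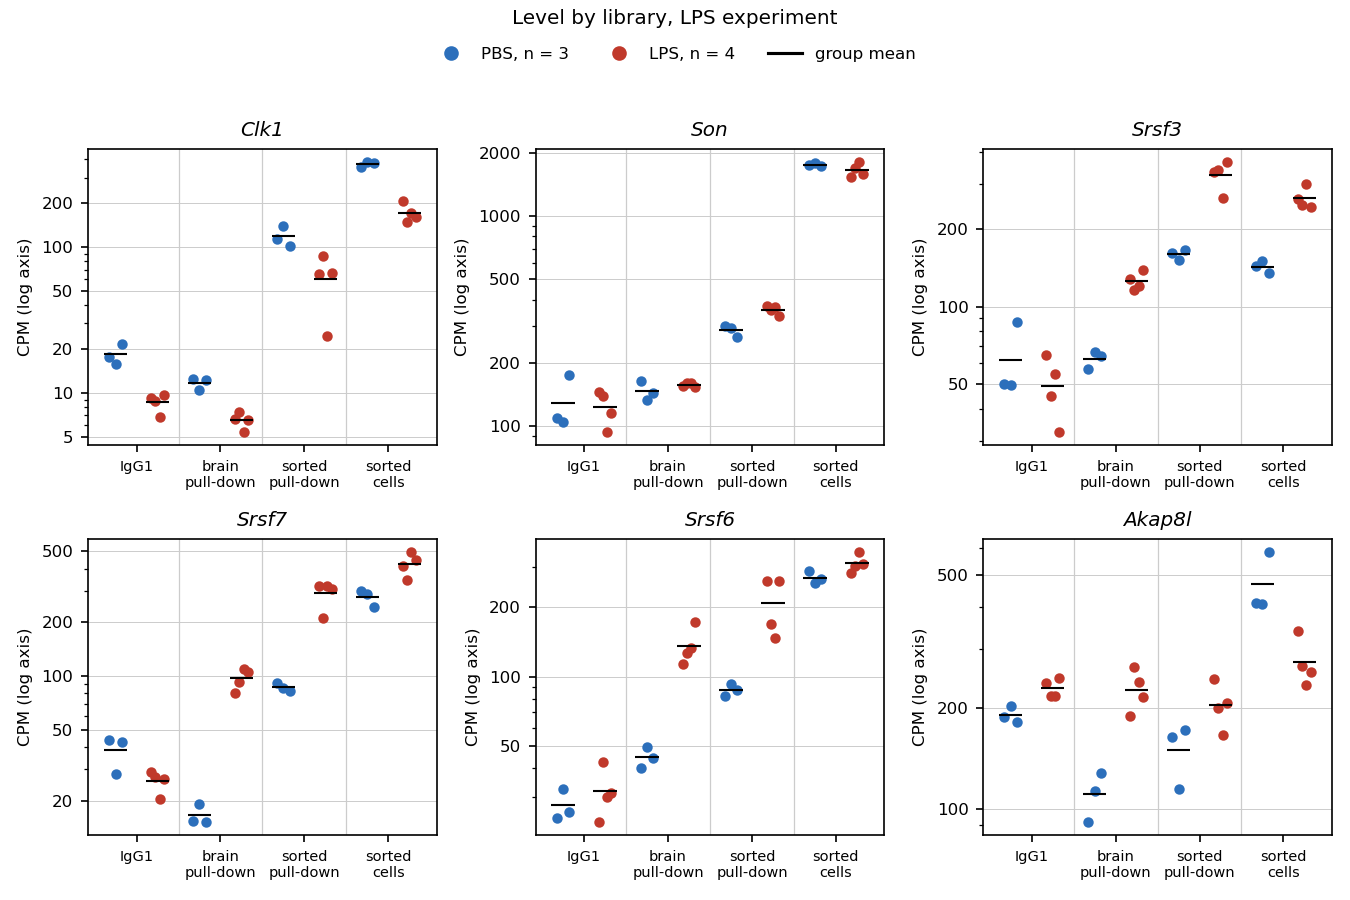
Levels (CPM, log axis) of Clk1, Son, Srsf3, Srsf7, Srsf6 and Akap8l in each library of the LPS experiment, for the 4 kinds of library and PBS or LPS, with bars at the group means. Clk1 and Son are highest in sorted cells and intermediate in pull-downs from sorted cells. Srsf7 and Srsf6 are higher with LPS in both anti-HA pull-downs, and Akap8l is lower with LPS in sorted cells.

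Other genes of the splicing pathway were read from lists of related function. In PBS mice, speckle and SR-related proteins outside the set were higher in sorted cells for 19 of 22 and lower for 0 (median 1.93), led by Ccnl1 (3.68), Ddx5 (3.11) and Ccnl2 (3.06). In the pull-down from sorted cells 18 of the 22 were lower and 1 higher (median -1.21), with Ccnl1 at -1.90 and Pnn at -2.15. Core spliceosome genes showed a split of 11 higher and 16 lower of 36 in sorted cells (median -0.14), with Sf3b1 at 4.26, and 8 higher and 5 lower in the pull-down from them (median 0.12). Other splicing regulators were 20 higher and 9 lower of 35 in sorted cells (0.93), and SR protein kinases and phosphatases 4 higher and 1 lower of 10 (0.33). Export and nonsense-mediated decay genes were 8 higher and 3 lower of 18 (0.24).

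Nuclear long noncoding RNAs give a reference for RNA that is not translated. In PBS mice Malat1 and Neat1, both retained in the nucleus, were higher in sorted cells than in the whole-brain pull-down by 3.78 ± 0.24 (adjusted p = 4.08e-18) and 2.79 ± 0.23 (adjusted p = 5.99e-17). Both were lower in the pull-down from sorted cells, with log2 fold changes of -2.50 and -2.11. The list of 7 tested noncoding RNAs as a whole had 3 higher and 4 lower in sorted cells, and 1 higher and 3 lower in the pull-down from them, with a median of 0.00. Over the 14 sorted libraries and pull-downs from sorted cells, the genes outside the set whose log2 CPM followed the mean of the splicing factors most closely were Atp8a1 (Pearson r 0.99), Pnn, Sltm, Adap2 and Zc3h11a (each 0.98). These are descriptions over libraries that share their preparation and depth.

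LPS, a bacterial cell wall component given to elicit systemic inflammation, raised more splicing factors than it lowered in each anti-HA or sorted preparation. In the whole-brain pull-down 21 rose and 1 fell (median 0.53, all genes -0.03), where 26.5% of all genes were called, 15.5% higher and 11% lower, and without PBS replicate 2 the counts were 15 and 2. Sorted cells had 12 higher and 6 lower (median 0.21, all genes -0.01), with 34.5% called, 17% higher and 17.6% lower, and without replicate 3 of sorted PBS the counts were 11 and 3. In the pull-down from sorted cells 20 rose and 2 fell (median 0.55, all genes -0.07), with 25.6% called, 12.7% higher and 12.9% lower. Leaving out its 3 shallow libraries gave 16 and 1, and leaving out replicate 3 of its PBS group 13 and 3. In IgG1 controls 0 rose and 1 fell (median -0.13, all genes -0.02), with 1.15% called, 1% higher and 0.149% lower. That one was Clk1 (-1.06 ± 0.29, adjusted p = 0.0443), a call lost without any one of the 7 IgG1 libraries. Without replicate 1 of the LPS controls Hnrnpk was called lower instead (-0.80, adjusted p = 0.025).

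SR proteins rose with LPS for 6 of 10 in either anti-HA pull-down and for 4 of 10 in sorted cells, with medians of 0.79 in the whole-brain pull-down, 0.77 in the pull-down from sorted cells and 0.18 in sorted cells, and none fell. Srsf7 in whole-brain pull-downs went from 15.3, 19.1 and 15.3 CPM with PBS to 80.4, 91.9, 109 and 106 with LPS, while the IgG1 controls of LPS mice were at 29.1, 27.3, 20.5 and 26.6. The LPS libraries were thus above PBS and above IgG1 in every case, where the PBS libraries had been below IgG1. The log2 change was 2.52 ± 0.21 (adjusted p = 7.61e-16). In sorted cells Srsf7 went to 414, 347, 492 and 449 CPM from 243 to 298 (0.63 ± 0.16, adjusted p = 0.00103), and in the pull-down from sorted cells to 321, 211, 320 and 308 from 82.6 to 91.9 (1.76 ± 0.20, adjusted p = 8.63e-11).

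Srsf2 went from 33.6 to 38.8 CPM in whole-brain pull-downs to 121, 124, 143 and 146 (1.87 ± 0.20, adjusted p = 2.91e-12). In sorted cells its LPS libraries had 237, 218, 276 and 272 CPM (0.57 ± 0.17, adjusted p = 0.00716) and in pull-downs from them 353, 324, 271 and 415 (1.22 ± 0.19, adjusted p = 7.77e-07). No LPS library of Srsf2 fell into the PBS range of its preparation. Srsf6, another exonic enhancer-binding factor, had 40.2, 49.3 and 44.3 CPM with PBS and 113, 126, 134 and 173 with LPS in whole-brain pull-downs (1.59 ± 0.19, adjusted p = 1.44e-10). Its sorted libraries, at 256 to 287 and 284 to 347 CPM, overlapped (0.21 ± 0.16, adjusted p = 0.353), and in the pull-down from them it rose by 1.35 ± 0.21 (adjusted p = 4.92e-07).

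Srsf5 rose in the whole-brain pull-down, to 291, 304, 208 and 304 CPM from 95.5 to 156 (1.14 ± 0.17, adjusted p = 2.42e-07), and in the pull-down from sorted cells, to 436, 391, 308 and 426 from 191 to 266 (0.79 ± 0.19, adjusted p = 0.000868). In sorted cells it had 671, 582, 656 and 536 CPM, on both sides of the PBS range (-0.04 ± 0.16, adjusted p = 0.89). Srsf3 rose by about the same amount everywhere. The values were 1.00 ± 0.18 (adjusted p = 7.68e-06) in the whole-brain pull-down, 0.89 ± 0.18 (adjusted p = 3.17e-05) in sorted cells, where LPS libraries had 264, 250, 301 and 245 CPM, and 1.04 ± 0.19 (adjusted p = 1.45e-05) in the pull-down from them. In whole-brain pull-downs Srsf3 stood at 128, 116, 121 and 138 CPM with LPS, above the PBS libraries and the IgG1 controls at 32.5 to 64.5.

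Clk1 was the one splicing factor lower with LPS in all 3 preparations. In sorted cells it went from 355, 381 and 376 CPM to 207, 148, 170 and 162, without overlap (-1.11 ± 0.16, adjusted p = 2.69e-08). In the pull-down from sorted cells the LPS libraries had 65, 87.5, 24.6 and 66.2 CPM against 101 to 141 (-0.87 ± 0.23, adjusted p = 0.00211). In whole-brain pull-downs, where Clk1 was at or below its IgG1 controls, it had 6.59, 7.45, 5.43 and 6.48 CPM (-0.83 ± 0.30, adjusted p = 0.0339). That last call was lost without replicate 1 (adjusted p = 0.0676) or 3 (0.0769) of the LPS pull-down or replicate 1 (0.104) or 3 (0.0953) of the PBS pull-down. In the IgG1 controls themselves Clk1 changed by -1.06 with LPS, a call lost without any one of those libraries. The change in whole-brain pull-downs therefore need not come from tagged ribosomes. Clk4 did not pass in any preparation (adjusted p of 0.719 in the whole-brain pull-down, 0.782 in sorted cells and 0.74 in the pull-down from them), and its LPS libraries after pull-down from sorted cells had 20.4, 0, 0 and 12.5 CPM. The median of the 4 kinases was 0.10 in whole-brain pull-downs, -0.32 in sorted cells and -0.44 in pull-downs from them.

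SR-related genes rose for 5 of 10 in whole-brain pull-downs (median 0.61) and for 3 of 10 in pull-downs from sorted cells (0.39), and were 3 higher and 3 lower in sorted cells (-0.17). Akap8l had 92, 114 and 128 CPM with PBS and 190, 265, 239 and 216 with LPS in whole-brain pull-downs (1.03 ± 0.17, adjusted p = 1.38e-06), although IgG1 controls held 183 to 203 and 217 to 247 CPM. In sorted cells it went down, from 411, 410 and 582 CPM to 340, 267, 235 and 257 (-0.77 ± 0.16, adjusted p = 8.58e-05), again without overlap. Arglu1 showed the same pair of directions: 63.3, 60.2, 99.8 and 78.9 CPM with LPS in whole-brain pull-downs (0.62 ± 0.20, adjusted p = 0.0123), with IgG1 controls of 67.4 to 94.3 CPM in the same range, and 268, 233, 224 and 250 CPM in sorted cells (-0.57 ± 0.17, adjusted p = 0.00609). Its rise was lost without replicate 3 of the LPS pull-down (adjusted p = 0.1) or replicate 2 of the PBS pull-down (0.0685), and its fall without replicate 3 of sorted PBS (0.086). Pnisr fell in sorted cells, to 131, 172, 199 and 154 CPM (-0.57 ± 0.18, adjusted p = 0.00844, but 0.057 without replicate 3 of sorted PBS). Son did not pass anywhere: its log2 changes were 0.10 ± 0.16, -0.09 ± 0.15 and 0.32 ± 0.18, with 1540, 1696, 1800 and 1578 CPM in sorted LPS cells.

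Among hnRNP genes 8 of 20 rose in whole-brain pull-downs (median 0.51), 5 rose and 1 fell in sorted cells (0.39) and 9 rose and 1 fell in pull-downs from sorted cells (0.59). Hnrnpab rose in all 3, to 675, 754, 663 and 780 CPM (0.96 ± 0.15, adjusted p = 4.84e-07), to 346, 363, 375 and 364 (1.18 ± 0.16, adjusted p = 1.93e-08) and to 479, 376, 382 and 517 (0.86 ± 0.17, adjusted p = 5.14e-05), with IgG1 controls at 102 to 151. Hnrnpu did so too, with 129, 132, 131 and 159 CPM in whole-brain pull-downs (0.71 ± 0.16, adjusted p = 0.000474), 262, 222, 245 and 233 in sorted cells (0.96 ± 0.17, adjusted p = 3.12e-06) and 171, 149, 191 and 157 in pull-downs from them (0.81 ± 0.20, adjusted p = 0.00152, and 0.112 without replicate 3 of the PBS group). None of the LPS libraries of either gene overlapped those of PBS mice. Hnrnpa2b1 rose in whole-brain pull-downs (1.30 ± 0.19, adjusted p = 3.96e-08) and in pull-downs from sorted cells (1.01 ± 0.21, adjusted p = 0.000152), while sorted cells had 499, 418, 531 and 428 CPM (0.16 ± 0.16, adjusted p = 0.475). Hnrnpll, which regulates exon choice in lymphocytes, rose in sorted cells by 1.36 ± 0.31 (adjusted p = 0.000357), and Hnrnph3 fell there by 1.03 (SE 0.26, adjusted p = 0.000915). Hnrnpa1 rose in the pull-down from sorted cells (1.53 ± 0.48, adjusted p = 0.0116), with 24.1, 56.6, 36.9 and 14.3 CPM, a call lost without its shallow libraries (0.347), replicate 2 of the LPS group (0.0657) or replicate 1 of the PBS group (0.0506). Hnrnph2 there rested on 16 reads against 1 (ratio 15.1, 95% interval 2.35 to 634, and adjusted p 0.0622 without replicate 3 of the PBS group). Hnrnpul1 rested on 2 reads against 12 (ratio 0.158, 0.0171 to 0.708), with an adjusted p of 0.155 without replicate 1 of the LPS group.

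Of the LUC7-like genes 2 of 3 rose in either pull-down (medians 0.53 and 0.55) and 0 in sorted cells (0.17). Luc7l3 had 98.5, 91.9, 109 and 115 CPM with LPS in whole-brain pull-downs (0.53 ± 0.17, adjusted p = 0.0153) and 188, 163, 218 and 207 in sorted cells (0.10 ± 0.17, adjusted p = 0.684). The former call was lost without replicate 2 (adjusted p = 0.0778) or 3 (0.0836) of the PBS pull-down. Across the 47 tested genes, 7 rose in all 3 preparations (Srsf2, Srsf3, Srsf7, Hnrnpab, Hnrnpc, Hnrnpdl and Hnrnpu) and 14 passed in none. Another 8 rose in both anti-HA pull-downs and did not pass in sorted cells (Srsf5, Srsf6, Srsf11, Hnrnpa2b1, Hnrnph1, Luc7l2, Luc7l3 and Srrm1). Missing the threshold in sorted cells is not in itself a difference. Of these 8, only Srsf5, Srsf6 and Hnrnpa2b1 passed the test of a different response between sorted cells and whole-brain pull-down given below. The shares of such patterns over all genes were not computed for the 3 preparations together. Of the 21 that rose in the whole-brain pull-down 8 also rose in sorted cells (38.1%, and 66.7% of the 12), against 70.7% and 64.8% over all genes. In the pull-down from sorted cells 15 of the 21 rose (71.4%, and 75% of the 20), against 59.8% and 72.9% over all genes. These comparisons share no library, but per the design sorted cells and pull-downs came from the same animals. The overlaps are therefore not independent replication. Some of these calls rested on single libraries. The adjusted p rose to 0.112 for Hnrnpc in the whole-brain pull-down without PBS replicate 2, and to 0.145 for Hnrnpdl in sorted cells without PBS replicate 3. In the pull-down from sorted cells it rose to 0.286 for Luc7l3 and 0.163 for Srrm1 without PBS replicate 1, to 0.104 for Luc7l2 without PBS replicate 2, to 0.222 for Hnrnph1 without PBS replicate 3 and to 0.15 for Srsf11 without LPS replicate 4.

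**Figure D4:**
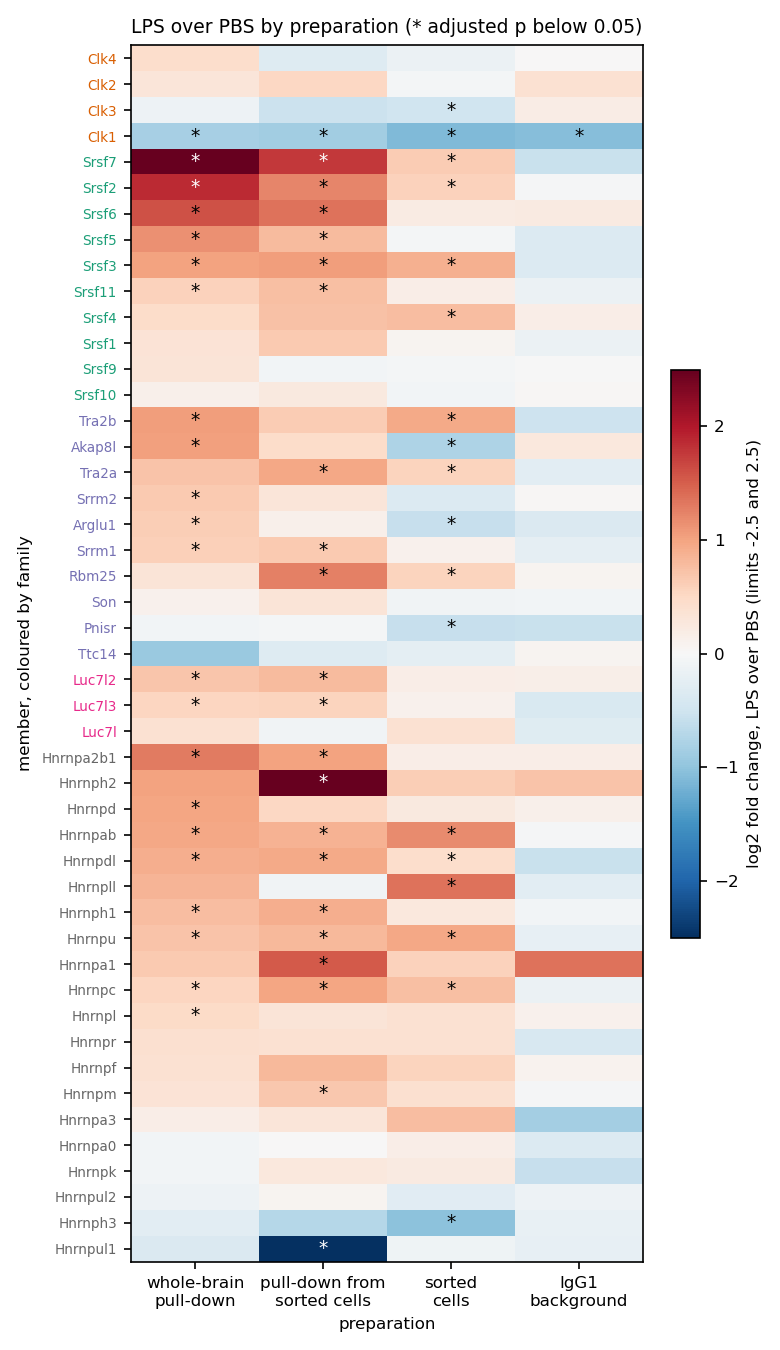
Log2 change with LPS (colour) of the tested splicing factors in whole-brain pull-downs, pull-downs from sorted cells, sorted cells and IgG1 controls, with asterisks at an adjusted p under 0.05. The anti-HA pull-downs hold most of the asterisks for rising genes (21 and 20), sorted cells hold 12 rising and 6 falling, and the IgG1 column holds 1.

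Whether the LPS response itself differed between sorted cells and the whole-brain pull-down was tested by an interaction term. For 8 of the 47 splicing factors it did, all with a smaller rise or a fall in sorted cells (median difference -0.27, all genes -0.06), where 3.21% of all genes were called, 0.795% higher and 2.41% lower. The differences were -1.89 ± 0.26 for Srsf7 (adjusted p = 1.64e-06), -1.80 ± 0.23 for Akap8l (adjusted p = 3.54e-07), -1.38 ± 0.25 for Srsf6 (adjusted p = 0.000162) and -1.30 ± 0.26 for Srsf2 (adjusted p = 0.00087). Srsf5 (-1.19 ± 0.24, adjusted p = 0.000897), Arglu1 (-1.19 ± 0.26, adjusted p = 0.00298) and Hnrnpa2b1 (-1.14 ± 0.24, adjusted p = 0.00213) followed. Srrm2, the other scaffold of speckles, stood at -0.99 ± 0.25 (adjusted p = 0.0136), a call lost without replicate 3 of the PBS pull-down (0.0667) or of sorted PBS (0.0778). Of 16 immediate early genes 5 also had a smaller response in sorted cells (median -0.51). The part of this in the splicing factors was not tested. For the neuron, astrocyte, oligodendrocyte and border macrophage lists 0 genes differed in this test.

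The response of pull-downs from sorted cells minus that of sorted cells gave 0 calls by edgeR among all genes (0%), with 761 genes and 13 splicing factors at an unadjusted p under 0.05, and 4 genes, 2 of them splicing factors, by DESeq2. The values for the splicing factors were 1.22 ± 0.26 for Akap8l (adjusted p = 0.111), 1.14 ± 0.27 for Srsf6 (adjusted p = 0.156), 1.13 ± 0.25 for Srsf7 (adjusted p = 0.134) and 0.83 ± 0.25 for Srsf5 (adjusted p = 0.539). DESeq2 called Akap8l (adjusted p = 0.0167) and Srsf7 (0.0265). In edgeR Akap8l, Srsf6 and Srsf7 passed with total-count scaling (adjusted p = 0.0232, 0.03 and 0.03) and with a fit of these groups alone (0.0364 for each), and Akap8l without replicate 1 of sorted LPS (0.0487) or of sorted PBS (0.0469). With a block for the number in the library titles, which the sorted cells and pull-downs share, 18 genes and 4 splicing factors were called: Akap8l (adjusted p = 0.00236), Srsf7 (0.00362), Srsf6 (0.0102) and Srsf5 (0.0272).

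The SR genes with the largest rise in the whole-brain pull-down were Srsf7, Srsf2, Srsf6 and Srsf5, and their promoters are shown because these genes moved together there and differed in their response from sorted cells. The windows run from 250 bases before to 50 bases after the annotated start, from RefSeq on build GRCm38.p6: Srsf2 at chr11:116853045-116853344 (minus strand), Srsf5 at chr12:80945249-80945548 (plus strand), Srsf6 at chr2:162931258-162931557 (plus strand) and Srsf7 at chr17:80207256-80207555 (minus strand). Each is printed 5′ to 3′ on the strand of the gene, and capitals mark matches to any of 7 motifs on either strand, which may abut or overlap.
Srsf2: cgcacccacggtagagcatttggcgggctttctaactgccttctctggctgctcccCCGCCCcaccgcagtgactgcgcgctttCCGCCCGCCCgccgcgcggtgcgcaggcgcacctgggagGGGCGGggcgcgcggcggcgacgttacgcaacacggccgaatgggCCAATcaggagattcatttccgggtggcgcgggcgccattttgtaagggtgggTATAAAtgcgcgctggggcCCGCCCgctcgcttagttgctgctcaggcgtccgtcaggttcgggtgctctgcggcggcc
Srsf5: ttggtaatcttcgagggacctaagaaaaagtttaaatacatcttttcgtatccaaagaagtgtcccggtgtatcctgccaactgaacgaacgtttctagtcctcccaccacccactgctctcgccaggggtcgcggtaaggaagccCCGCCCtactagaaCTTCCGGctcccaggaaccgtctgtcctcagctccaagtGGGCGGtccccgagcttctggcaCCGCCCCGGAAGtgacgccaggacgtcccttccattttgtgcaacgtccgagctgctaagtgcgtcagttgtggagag
Srsf6: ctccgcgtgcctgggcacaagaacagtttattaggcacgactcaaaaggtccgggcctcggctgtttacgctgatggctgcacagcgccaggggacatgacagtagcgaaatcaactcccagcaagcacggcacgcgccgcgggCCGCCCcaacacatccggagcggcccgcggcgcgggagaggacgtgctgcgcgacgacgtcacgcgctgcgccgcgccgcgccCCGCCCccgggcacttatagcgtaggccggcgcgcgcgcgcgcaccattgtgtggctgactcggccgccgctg
Srsf7: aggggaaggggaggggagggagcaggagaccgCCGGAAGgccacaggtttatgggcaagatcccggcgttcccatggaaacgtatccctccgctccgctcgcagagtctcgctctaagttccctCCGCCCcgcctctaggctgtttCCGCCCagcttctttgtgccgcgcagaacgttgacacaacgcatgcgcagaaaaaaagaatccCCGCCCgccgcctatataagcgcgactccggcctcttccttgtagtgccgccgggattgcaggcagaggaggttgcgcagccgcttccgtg

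The motifs searched were the cAMP response element TGACGTCA, the NF-kB site, the ETS core CCGGAAG, the CCAAT box (CCAAT), the TATA box (TATAAA), the NRF1 site and the GC box GGGCGG, on both strands. Each motif, the NF-kB and NRF1 sites included, was sought as an exact match to a fixed sequence, so variants were not counted. RefSeq windows matched by symbol existed for 41 of the 48 splicing factors, with 54 windows, and for 32851 windows in all. The GC box was in all 4 promoters shown, in 77.8% of the windows of splicing factors and in 35.7% of all windows. The ETS core was in those of Srsf5 and Srsf7, in 20.4% of the set and 8.86% of all. The CCAAT box was in that of Srsf2, in 50% of the set and 37.4% of all, and Srsf2 also held a TATA box 29 bases before its start, found in 9.26% of the set and 13.6% of all. TGACGTCA was in 3.7% of the set (Clk4 and Tra2a) and 1.79% of all, and the fixed NRF1 sequence in 3.7% and 0.971%. The fixed NF-kB sequence was in 0% of the set and 0.155% of all (51 of 32851 windows). Other forms of the NF-kB site were not searched, so the 0% does not show that these promoters lack such sites. These are letter matches in short windows and say nothing about binding.

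The driver experiment set pull-downs against their inputs, with no sorted cells. In the inducible line with tamoxifen 14 splicing factors were higher and 15 lower in the pull-down than in the whole-brain input (median -0.20, all genes -0.28), where 64.2% of 11868 genes were called, 28.7% higher and 35.5% lower. Srsf9 led again, with 520, 526 and 454 CPM in pull-downs, 77.1, 69.3 and 37.5 in inputs and 46.6, 33.9 and 41.2 in IgG1 controls (3.05 ± 0.23, adjusted p = 3.25e-14). Every pull-down was far above input and control. Hnrnpa1 (2.24 ± 0.41, adjusted p = 1.2e-05) and Hnrnpf (2.10 ± 0.54, adjusted p = 0.000907) were also higher, and Hnrnpll (-2.94 ± 0.45, adjusted p = 6.3e-07), Srsf12 (-2.77 ± 0.51, adjusted p = 1.38e-05) and Ttc14 (-2.01 ± 0.48, adjusted p = 0.000424) were lower.

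Input replicate 3 stood apart for these genes: Son had 141 CPM there against 44.2 and 55.2 in the other inputs, and without it 17 were higher and 9 lower, with a median of 0.28 (all genes -0.13). Son then differed by 1.43 (adjusted p = 1.65e-06), against an adjusted p of 0.0639 with it. Total-count scaling gave 8 higher and 23 lower, and DESeq2 size factors 15 and 11. In the inducible line without tamoxifen the pull-downs, of 219521 and 186099 counts, had 108 and 159 CPM for Srsf9.

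The constitutive line had 6 higher and 5 lower (median -0.24, all genes -0.02), with 34.9% of genes called, 18.1% higher and 16.8% lower. Microglia markers summed to 2820 to 6910 CPM in its pull-downs and 888 to 1210 in its inputs. They reached 68900 to 90300 CPM in pull-downs of the inducible line with tamoxifen. Neuron markers summed to 13100 to 17300 CPM in the constitutive pull-downs, against 9770 to 12300 in the inputs. Calls in this line therefore need not describe microglia. Srsf9 stood at 109, 95.5 and 125 CPM in its pull-downs and at 86.7, 85.9 and 53 in inputs. Clk3 (0.89 ± 0.21, adjusted p = 0.00115) and Akap8l (0.81 ± 0.20, adjusted p = 0.00228) were higher, and Hnrnpll (-1.91 ± 0.33, adjusted p = 2.24e-05), Srsf1 (-1.06 ± 0.24, adjusted p = 0.000862) and Hnrnpd (-1.05 ± 0.22, adjusted p = 0.000282) lower. Counts of 2 higher and 15 lower came with total-count scaling. They were 3 and 7 without input replicate 1 or 2, 2 and 5 without input replicate 3, and 2 and 4 without pull-down replicate 3.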

How the data were processed

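RNA was measured in 67 libraries of 3 experiments by sequencing, and the authors deposited 1 table per experiment of unnormalized read counts per gene, taken over exons. The submitters' processing notes name bcl2fastq, HISAT 0.1.5, HOMER and build mm9, without saying which step each served. Annotation, strand setting and duplicate handling were not found in the sources used here. Every library was matched to its column by title, and 0 value columns were unmatched.

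Each table was fitted as a whole in R 4.3.3 with edgeR 4.0.16 (limma 3.58.1): filterByExpr with a minimum count of 10, TMM scaling, robust quasi-likelihood F tests with a coefficient for each group, and Benjamini-Hochberg adjustment over all genes tested, at a threshold of 0.05. CPM were scaled by TMM. The LPS, digestion and driver tables left 11444, 11529 and 11868 genes. Libraries held 166851 to 3513317 counts, and ratios of few reads carry 95% intervals, which like the floor of 3 reads cover counting error only. Scripts were tested on simulated data. Among 78 pairs of replicates 0 were identical and the lowest chi-square per gene was 1.5.

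The splicing factors and all lists were chosen with earlier results of these data known. Values are given by library for Clk1, Clk4, Srsf2, Srsf3, Srsf5, Srsf7, Son, Pnisr, Luc7l3, Arglu1, Hnrnpa1 and Hnrnpu, and each comparison names up to 6 called genes at either end and those opposite to most. Libraries of Srsf6, Srsf9, Akap8l, Hnrnpa2b1, Hnrnpab, Hnrnpk and Clk3 were added after their values were seen. Alternatives were DESeq2 1.42.0 size factors, total-count scaling, no filter, the DESeq2 Wald test, a fit of the compared groups alone, a replicate block and leaving out single libraries. Leaving out the shallow pull-downs from sorted cells was added after seeing the data. Promoter windows came from RefSeq on GRCm38.p6, and no coordinates were taken from the files' build.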

Additional observations from a re-analysis of the deposited data

Results flagged for a closer look

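The genes chosen to be shown by library gave 84 sets of 4 libraries, each of 1 gene in 1 group. In 7 of these sets 1 library was far from the others, where chance gives about 1 in 20 for independent sets. Genes of the same library are not independent, so this rate is only a rough guide. With LPS in whole-brain pull-downs, Srsf5 was at 207.7 CPM in replicate 3 against 291.3 to 303.7, Hnrnpa1 at 28.09 in replicate 4 against 19.69 to 21.09, and Hnrnpu at 158.8 in replicate 4 against 129.2 to 132.3. Srsf7 was at 210.9 CPM in replicate 2 of the pull-downs from sorted LPS cells, a library of 209147 counts, against 307.7 to 321.1. In cells sorted after digestion, Clk4 was at 32.11 CPM in replicate 3 against 48.23 to 49.98 and Hnrnpu at 120 in replicate 1 against 92.47 to 94.59. Srsf3 was at 187.4 CPM in replicate 4 of the IgG1 controls of that experiment against 98.32 to 110.3.

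The LPS response differed between sorted cells and the whole-brain pull-down by the interaction term for 8 splicing factors, by -1.89 for Srsf7, -1.80 for Akap8l, -1.38 for Srsf6, -1.30 for Srsf2, -1.19 for Srsf5, -1.19 for Arglu1, -1.14 for Hnrnpa2b1 and -0.99 for Srrm2 (log2 differences, sorted minus pull-down). For Akap8l and Arglu1 the changes had opposite signs in these preparations. The calls of all but Srrm2 held in each of 20 alternatives. No explanation was tested.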

How the results depend on the processing

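Of 522 counts of called genes recomputed under alternatives, 478 were within 1.5 times of the value reported and 44 were not. Of 4589 recomputed values of single splicing factors 4344 kept their direction and call, 173 lost the call, 70 gained one and 2 reversed: Srsf3 in the PBS whole-brain pull-down against IgG1 was -0.51 with DESeq2 size factors (adjusted p = 0.0186) and -0.52 with the DESeq2 Wald test (adjusted p = 0.0146). The cause was not tested.

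The count of splicing factors lower with LPS in IgG1 controls went from 1 to 0 with DESeq2 size factors, no filter, the DESeq2 Wald test and the compared groups alone, and all genes called from 132 to 213 with no filter and 84 with the groups alone. The response of sorted cells minus whole-brain pull-down had 367 genes called and 552 with the groups alone. That of pull-downs from sorted cells minus sorted cells had 0, and 4 (3 of them splicing factors) with total-count scaling, 4 (2) with the DESeq2 Wald test, 5 (3) with the groups alone and 2 genes without the shallow libraries. Digestion against none had 16 genes called, 25 with no filter, 25 with the DESeq2 Wald test and 30 with the groups alone. The constitutive line had 11 splicing factors called and 17 with total-count scaling.

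Leaving out 1 library at a time gave 0 to 1 splicing factors and 86 to 172 genes for IgG1, 7 to 8 and 196 to 437 for sorted minus whole-brain pull-down, and 0 to 1 and 0 to 2 for pull-downs from sorted cells minus sorted cells. It gave 6 to 13 splicing factors for the constitutive line and 13 to 23 genes for digestion. For sorted cells against the PBS pull-down 38 to 41 splicing factors were called, and 24 to 30 for pull-downs from sorted PBS cells against sorted cells.

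Sorted cells and pull-downs came from the same animals per the design, and the titles of the LPS experiment number libraries 1 to 7 across all 4 kinds, 1 to 3 for PBS and 4 to 7 for LPS. That the number names the mouse is not stated. Same-numbered libraries correlated by -0.018 to 0.141 in their deviations in the LPS experiment, and by -0.057 to 0.101 in the other experiments. In no comparison was every pair above 0.1, and the fit without the block was kept. Low correlations do not show that the libraries were unpaired. Every library correlated best with its own number for sorted cells against pull-down (3 of 3 and 4 of 4). With the replicate block, sorted minus whole-brain pull-down had 704 genes called, pull-downs from sorted cells minus sorted cells 18 genes and 4 splicing factors, and digestion against none 39 and 1. The pull-down of the digestion experiment against IgG1 had 17 splicing factors higher and 8 lower. In LPS mice the pull-down from sorted cells had 6 higher and 26 lower against sorted cells, and 26 and 3 against the whole-brain pull-down. No paired analysis was possible for LPS against PBS because different mice were compared. Depth limits Clk4, Hnrnpa1, Hnrnph2, Hnrnpul1 and Srsf12, which had few reads in pull-downs.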
